A study of Vitis vinifera with 6 samples.

Results

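The genes described here had their highest level of 3 sampled stages at fruit set, in both a seeded and a seedless grapevine clone. They number 84 of 28059 genes in the mRNA-Seq table. They were chosen by their measured values: at least 10 RPM (reads per 1000000 counted reads) in both libraries of young berries, a young berry level at least 4 times that of flowers and of ripe berries of the same clone, and a mutant to wild-type ratio in young berries between 0.33 and 2. Each ratio was taken after adding 0.5 RPM. The stages, numbered on the grapevine growth scale of E-L stages, were labelled flower (E-L 15), young berry (E-L 27) and ripe berry (E-L 38). E-L 15 flowers were taken before fertilization as whole inflorescences with compactly grouped flowers. E-L 27 berries were taken shortly after it, when they had begun to enlarge, and E-L 38 berries at harvest ripeness as whole bunches. No stage between these was sampled, so a higher level at bloom or between young and ripe berries would not be seen. The mutant was the seedless somatic variant of the wine grape Sangiovese, and the wild-type was the seeded Sangiovese clone. RNA was extracted from lots of flowers or berries.

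One library was made for each clone and stage, from the pooled RNA of 3 extractions of 1 biological replicate. There were therefore no replicates within a group, and no difference between 2 single libraries could be set against biological spread. Intervals given below are exact 95% intervals (conditional binomial, Clopper-Pearson) and cover counting error only. The libraries held 70331451 to 98800321 counted reads, so that 1 read was worth 0.0101 to 0.0142 RPM. In bulk samples of this kind, fewer cells of a type and less RNA per cell cannot be told apart.

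Fruit set is the step at which a pollinated flower becomes a growing fruit. In grapevine the young berry first enlarges by cell division and cell expansion while it is green, hard and acid, and the ovules that were fertilized grow into seeds in parallel. Hormones made in the ovary and in the developing seeds, auxin, gibberellin and cytokinin among them, are known to drive this growth, and tannins and organic acids build up at the same time. Ripening comes later, with softening, sugar uptake and, in red cultivars, coloration.

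The identity of the 84 genes was known only by their identifiers in the 12x v1 annotation of the PN40024 grapevine reference. In these identifiers the digits after VIT_ give the chromosome, and 00 stands for sequence not placed on one. None of the 84 was matched to a gene name, a product or a sequence in the sources used here, so they are described by their measurements and by their order along the chromosomes. RPM values were not divided by transcript length. A level is therefore compared below between libraries for one gene, and a ranking of genes by RPM is a ranking of reads, not of transcripts.

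The stage labels were set beside genes that the study annotated. The study listed these as candidates from the same libraries, so they are no independent check. PISTILLATA and AP3, which specify petals and stamens, had together 939 RPM in mutant and 1076 RPM in wild-type flowers, and at most 21.9 RPM in any berry library. The ripe berry genes EXPB4, an expansin, and a class IV chitinase had together 2108 RPM in mutant and 2073 RPM in wild-type ripe berries, and at most 23.6 RPM in any other library. Of 4 mature seed genes, oleosin OLE-2, 7S globulin, ABI3 and PM31, the sum was 0.339 RPM in mutant ripe berries against 366 RPM in wild-type ripe berries. The pollen and tapetum genes MS1 and MS2 had together 6.85 RPM in mutant flowers and 50.5 RPM in wild-type flowers. In the 4 berry libraries their sum was at most 1.26 RPM. The ovule and seed coat genes SEEDSTICK and TRANSPARENT TESTA16 had together 13.15 RPM in mutant and 81.55 RPM in wild-type young berries. Their sum was 10.19 RPM in mutant and 9.645 RPM in wild-type flowers, and 26.8 RPM in mutant and 33.26 RPM in wild-type ripe berries. No marker list was highest at E-L 27 in both clones.

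At E-L 27 the 84 genes had together 13350 RPM in the mutant and 13883 RPM in the wild-type, which was 1.335% of the mutant library (interval 1.332 to 1.338%) and 1.388% of the wild-type library (interval 1.386 to 1.391%). At E-L 15 their sum was 1715 RPM in the mutant and 1817 RPM in the wild-type, and at E-L 38 it was 368 RPM in the mutant and 525 RPM in the wild-type. The summed level in young berries was thus 7.78 times that in flowers of the mutant and 7.64 times that in flowers of the wild-type. Against ripe berries the factor was 36.3 in the mutant, against 26.5 in the wild-type. These factors describe the choice of the genes, which required a maximum at E-L 27, and carry no test. The share of all 28059 genes that met the conditions on the stages within 1 clone was 0.52% in the mutant (146 genes) and 0.527% in the wild-type (148 genes), and 86 genes met them in both clones.

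**Figure D1:**
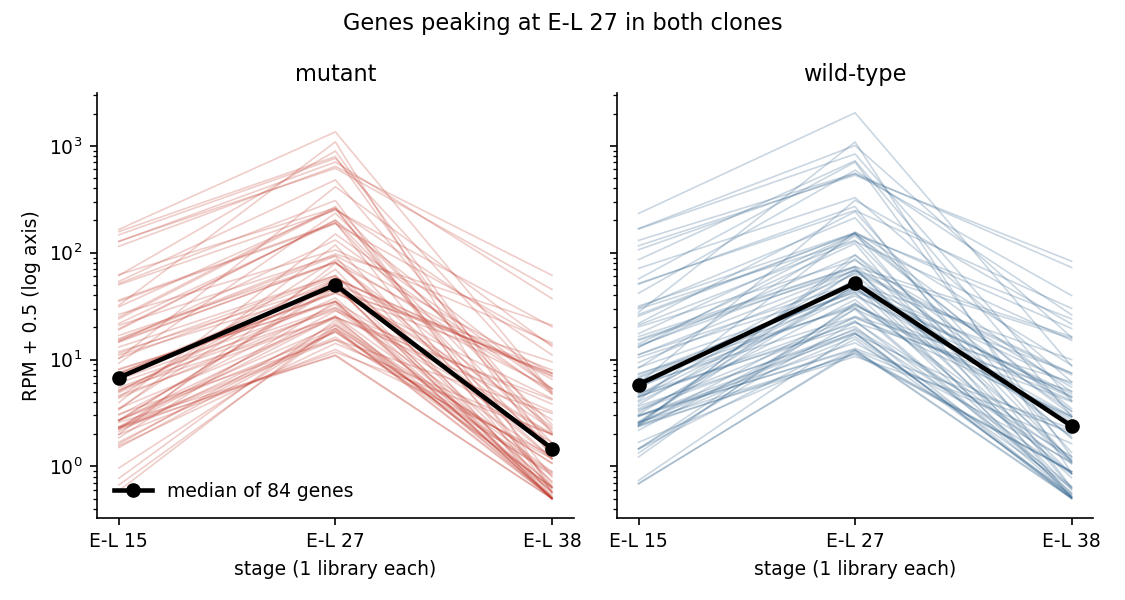
RPM plus 0.5 on a log axis for each of the 84 genes (thin lines) by stage, with the mutant on the left and the wild-type on the right, 1 library per point and the median in black. The line of medians peaks at E-L 27 by the choice of the genes, and in both clones it is lower at E-L 38 than at E-L 15.

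The 2 flanks of the maximum were of unequal depth. The median gene had 6.27 RPM in mutant and 5.34 RPM in wild-type flowers, 49.6 RPM in mutant and 51.5 RPM in wild-type young berries, and 0.966 RPM in mutant and 1.88 RPM in wild-type ripe berries. Expressed per gene, the flower level was 12.4% of the young berry level in the mutant, against 14.2% in the wild-type (medians over the 84 genes). The ripe berry level was 1.99% of the young berry level in the mutant, against 3.25% in the wild-type. For 68 genes the ratio that came nearest to the limit of 4 was the one over flowers, and for 16 genes it was the one over ripe berries. The whole set was already detected before fertilization, since every one of the 84 genes had more than 3 reads in both flower libraries. Of these, 32 reached 10 RPM in mutant flowers and 31 in wild-type flowers. In ripe berries 14 genes had 3 reads or fewer in the mutant, against 10 in the wild-type. For 10 genes this held in both clones, and these were not detectable in ripe berries at a depth of 3 reads, which corresponds to 0.0423 RPM in the mutant and 0.0304 RPM in the wild-type. There were 29 genes whose ripe berry level was under 1% of the young berry level in both clones.

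The set ran over a wide range of read numbers. In young berries the levels lay between 10.3 and 1348 RPM in the mutant, and between 10.2 and 2034 RPM in the wild-type. In each clone 26 genes reached 100 RPM. The 10 genes with the highest mean at E-L 27 held 56.7% of the summed RPM of the set in mutant young berries and 62% in wild-type young berries.

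The most abundant was VIT_10s0116g00560 on chromosome 10. It had 164 RPM in mutant and 232 RPM in wild-type flowers, 1348 RPM in mutant and 2034 RPM in wild-type young berries, and 4.43 RPM in mutant and 8.20 RPM in wild-type ripe berries. The young berry level was 8.20 times the flower level in the mutant and 8.77 times in the wild-type, and the ripe berry level was exceeded 304 times in the mutant and 248 times in the wild-type. Without this gene the summed young berry level of the set was higher in the mutant, with 12002 RPM in the mutant and 11849 RPM in the wild-type.

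The second, VIT_02s0154g00320 on chromosome 2, had one of the 2 sharpest maxima. It had 31.6 RPM in mutant and 27.2 RPM in wild-type flowers, 1088 RPM in mutant and 1084 RPM in wild-type young berries, and 0.0705 RPM (5 reads) in mutant and 0.364 RPM (36 reads) in wild-type ripe berries. The young berry level was the same in the clones within counting error, with a mutant to wild-type ratio of 1.004 (interval 0.995 to 1.01). It exceeded the flower level 34.4 times in the mutant and 39.9 times in the wild-type.

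The sharpest by the least of its 4 ratios, 35.0, was VIT_13s0158g00080 on chromosome 13. It had 2.88 RPM in mutant and 1.99 RPM in wild-type flowers, 118 RPM in mutant and 87.4 RPM in wild-type young berries, and 0.198 RPM in mutant and 0.567 RPM in wild-type ripe berries. Across the set the least of the 4 ratios had a median of 5.72. It was under 5 for 31 genes and at least 8 for 28 genes, so that many members lay near the limit of the rule. Just inside the limit stood VIT_00s0304g00070 with a least ratio of 4.002 and VIT_03s0038g03180 with 4.12. Just outside stood VIT_11s0052g01780 with 3.995 and VIT_11s0052g01250 with 3.98, which had 21.2 and 147 RPM in mutant and 15.98 and 185 RPM in wild-type young berries. The genes on either side of the limit thus had overlapping levels.

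**Figure D2:**
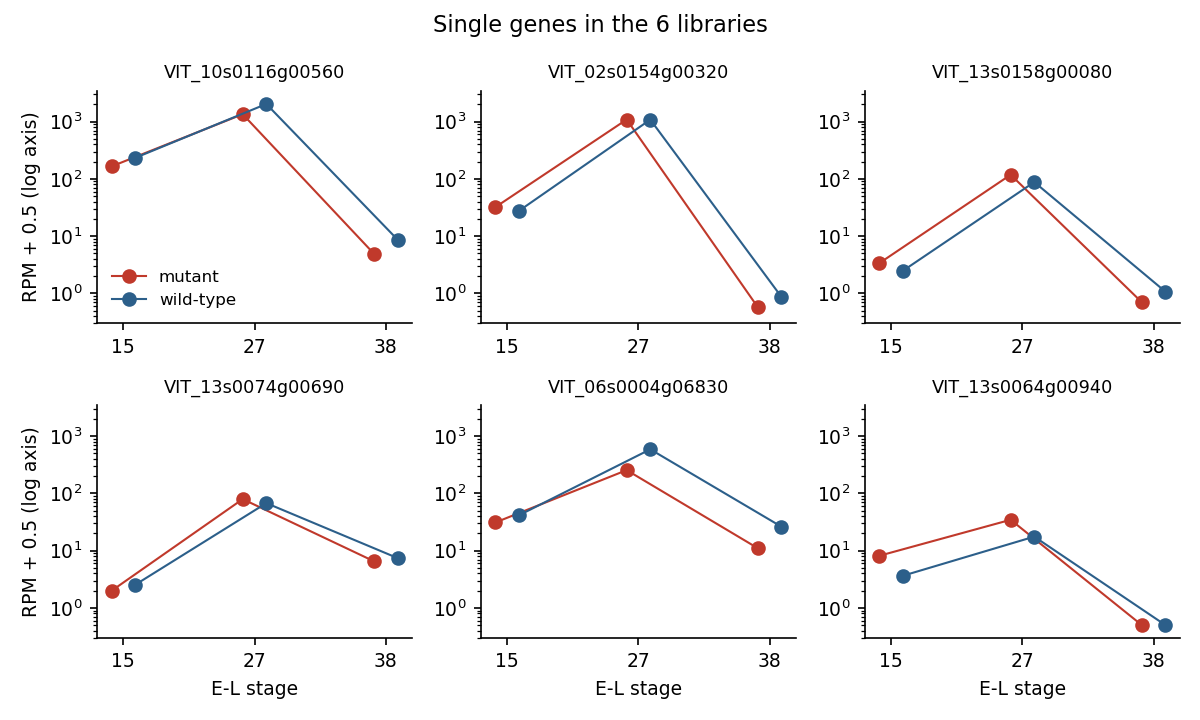
RPM plus 0.5 on a log axis in the 6 libraries for 6 genes of the set, with the mutant in red and the wild-type in blue at each stage. VIT_13s0074g00690 is higher in ripe berries than in flowers of both clones, while VIT_13s0064g00940 had no read in either ripe berry library.

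The clones shared most but not all of the genes that peaked at E-L 27 among the sampled stages. The 86 genes that peaked in both were 58.9% of the mutant's 146 and 58.1% of the wild-type's 148. Of the 60 genes that peaked in the mutant alone, 59 were also highest at E-L 27 in the wild-type. There 45 missed the 4-fold limit over flowers, 21 missed it over ripe berries and 10 were under 10 RPM, with some genes counted more than once. Of the 62 that peaked in the wild-type alone, 59 were also highest at E-L 27 in the mutant. In that clone 45 missed the limit over flowers, 18 missed it over ripe berries and 32 were under 10 RPM. One gene that peaked in both clones fell below the bound on the clone ratio: VIT_14s0066g01950 had 35.2 RPM in mutant and 137 RPM in wild-type young berries. No gene that peaked in both lay above the upper bound.

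None of 63 genes looked at here that the study names together with a function was a member, and several showed which conditions kept them out. The pectate lyase VIT_01s0026g01680, an enzyme that cuts pectin in cell walls, had 1.92 RPM in mutant and 24.6 RPM in wild-type young berries. TRANSPARENT TESTA16 (VIT_01s0011g01560), a MADS-box factor of the seed coat in Arabidopsis, had 2.43 RPM in mutant and 14.2 RPM in wild-type young berries. Both met the stage conditions in the wild-type, were under 10 RPM in mutant young berries and fell below the bound on the clone ratio. TRANSPARENT TESTA16 also missed the 4-fold limit over flowers in the mutant. The opposite pattern was seen in 3 ERF105 genes, which encode ethylene-responsive transcription factors. These had 18.6 to 23.3 RPM in mutant and 5.02 to 6.29 RPM in wild-type young berries. In the wild-type they also missed the 4-fold limit over flowers, and their clone ratios were above the upper bound. A further ERF105 gene, VIT_16s0013g01120, met the stage conditions in neither clone. It had 29.5 RPM in mutant and 13.2 RPM in wild-type young berries, and 49.15 RPM in mutant and 63.7 RPM in wild-type ripe berries. The cytokinin dehydrogenase precursor VIT_18s0001g13200, one of the enzymes that break down cytokinin, had 38.7 RPM in mutant and 31.7 RPM in wild-type flowers, 111 RPM in mutant and 144 RPM in wild-type young berries, and 0.536 RPM in mutant and 0.344 RPM in wild-type ripe berries. It missed the 4-fold limit over flowers in the mutant. The gene of Myb domain protein 7 (VIT_04s0008g01800) missed that limit in the wild-type, with 6.64 RPM in mutant and 7.44 RPM in wild-type flowers, and 30.2 RPM in mutant and 30.1 RPM in wild-type young berries.

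At E-L 27 the clones were close for most members, as the bounds on the clone ratio required in part. The median mutant to wild-type difference was 0.15 on the log2 scale of RPM plus 0.5, the middle 50% of the genes lay between -0.16 and 0.33, and 69 of the 84 were within 1.5-fold. There were 54 genes higher in the mutant and 30 higher in the wild-type. Over all genes averaging 1 RPM or more there the median was -0.03. These values are descriptions, since the rule used this contrast.

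**Figure D3:**
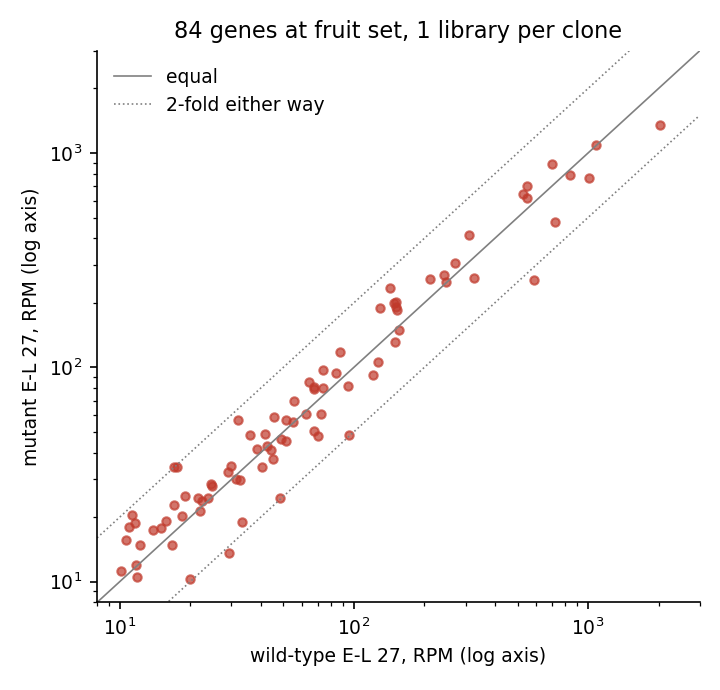
Level of each of the 84 genes in mutant young berries (vertical axis, RPM, log axis) against wild-type young berries (horizontal axis, RPM, log axis), 1 library per clone. The solid line marks equal levels and the dotted lines a 2-fold difference. The choice of the genes bounded the ratio between 0.33 and 2, and 2 points lie below the lower dotted line.

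The genes at the low end of this range were VIT_06s0004g06830 and VIT_08s0058g00930. The first, on chromosome 6, had 30.7 RPM in mutant and 41.2 RPM in wild-type flowers, 255 RPM in mutant and 590 RPM in wild-type young berries, and 10.5 RPM in mutant and 25.7 RPM in wild-type ripe berries. It was lower in the mutant at all 3 stages, with mutant to wild-type ratios of 0.744 (interval 0.708 to 0.782), 0.432 (interval 0.425 to 0.440) and 0.410 (interval 0.377 to 0.445). The second, on chromosome 8, had 1.06 RPM in mutant and 0.832 RPM in wild-type flowers, 13.7 RPM in mutant and 29.4 RPM in wild-type young berries, and 1.495 RPM in mutant and 2.42 RPM in wild-type ripe berries. Its flower ratio of 1.27 had a counting interval that included 1 (0.929 to 1.74).

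The genes at the high end were VIT_13s0064g00940 and VIT_09s0002g05280. The first had 7.66 RPM in mutant and 3.15 RPM in wild-type flowers, 34.2 RPM in mutant and 17.1 RPM in wild-type young berries, and no read in either ripe berry library. The flower ratio was 2.43 (interval 2.11 to 2.80) and the young berry ratio 1.999 (interval 1.88 to 2.13). The second had 1.35 RPM in mutant and 2.03 RPM in wild-type flowers, 34.3 RPM in mutant and 17.6 RPM in wild-type young berries, and likewise no read in ripe berries. It was lower in mutant flowers (ratio 0.666, interval 0.525 to 0.842) and higher in mutant young berries (ratio 1.95, interval 1.83 to 2.08).

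In flowers, a stage whose clone ratio the rule did not use, the median clone difference of the members was small, as it was over all genes. The median mutant to wild-type difference was 0.02 on the log2 scale of RPM plus 0.5, against -0.02 over all 18825 genes averaging 1 RPM or more in flowers. Of the 84 genes, 44 were higher and 40 lower in the mutant. Of the 78 averaging 1 RPM or more, 37 were lower, which was 47.4% against 54.5% of all genes at that level. Among the 78 members averaging 1 RPM or more, 1 was at least 2-fold higher in the mutant, VIT_13s0064g00940, and 0 were 2-fold lower. The background shares were 0.207% of all genes 2-fold higher and 0.59% 2-fold lower. By plain RPM ratios, a scale added after the data were seen, 1 of the 78 was 2-fold higher and 1 was 2-fold lower (1.28% each), against backgrounds of 0.388% higher and 0.786% lower. The lower one, VIT_12s0028g01710, had 2.08 RPM in mutant and 4.30 RPM in wild-type flowers (ratio 0.484, interval 0.404 to 0.578). With 1 library a clone these are sizes of difference, without a test.

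In ripe berries more members were lower in the mutant. The median difference was -0.31 on the log2 scale of RPM plus 0.5, against -0.08 over all 16946 genes averaging 1 RPM or more, and 63 members were lower and 18 higher in the mutant. With 0.05 RPM added in place of 0.5 the medians were -0.53 for the members and -0.09 for all genes. Of the 48 members averaging 1 RPM or more in ripe berries, 38 were lower in the mutant, which was 79.2% against 61.9% of all genes at that level. Among these 48, 9 were at least 2-fold lower in the mutant, which was 18.8% against a background of 6.38%. One member, 2.08% against a background of 1.47%, was at least 2-fold higher. By plain RPM ratios 11 of the 48 (22.9%) were 2-fold lower against a background of 7.4%, and 1 was 2-fold higher against a background of 1.82%. The other 36 members averaged under 1 RPM, where the added 0.5 RPM brings ratios near 1, and are not counted here. Rescaled by DESeq size factors, 7 of the 48 members were 2-fold lower, 14.6% against 5.62% of all genes, and 57 of the 84 were lower at all. The rule capped the ripe berry level of the members relative to young berries, and the background genes had no such cap. A share over genes of like level and like fall was not computed, so these shares are descriptions.

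On the log2 scale of RPM plus 0.5, the members furthest apart between the ripe berries of the clones were VIT_03s0180g00320 and VIT_09s0054g01220. The first had 61.8 RPM in mutant and 70.8 RPM in wild-type flowers, 261 RPM in mutant and 326 RPM in wild-type young berries, and 0.296 RPM (21 reads) in mutant and 5.69 RPM (562 reads) in wild-type ripe berries. The clones were thus near each other up to fruit set, and the ripe berry ratio was 0.0521 (interval 0.0320 to 0.0804). The second had 18.9 RPM in mutant and 12.4 RPM in wild-type flowers, 200.5 RPM in mutant and 148 RPM in wild-type young berries, and 4.85 RPM in mutant and 23.5 RPM in wild-type ripe berries, a ripe berry ratio of 0.207 (interval 0.184 to 0.231). It was thus higher in the mutant up to fruit set and lower in the mutant at harvest. Plain RPM ratios put some members with fewer reads further apart than VIT_09s0054g01220. Among them was VIT_17s0000g01230, with 11 reads in mutant and 207 reads in wild-type ripe berries (ratio 0.0741, interval 0.0364 to 0.135). VIT_10s0003g02440, with 1 read in mutant and 63 reads in wild-type ripe berries, was also past VIT_03s0180g00320 (ratio 0.0221, interval 0.00055 to 0.128). VIT_13s0106g00080 had 0 reads in mutant and 35 reads in wild-type ripe berries. The single member 2-fold higher in mutant ripe berries, VIT_17s0000g09770, had 6.43 RPM there and 2.02 RPM in wild-type ripe berries. It was also higher in mutant flowers, with 1.72 RPM against 0.951 RPM in wild-type flowers, and in mutant young berries, with 56.7 RPM against 32.1 RPM in wild-type young berries.

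The mature seed genes differed between these 2 ripe berry libraries in the same direction as most members, each of the 4 having at most 0.296 RPM in the mutant and at least 22.1 RPM in the wild-type, with 7S globulin and ABI3 at 0 reads in the mutant. The part that seed tissue or the lower depth of the mutant library had in the difference of the members was not tested.

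**Figure D4:**
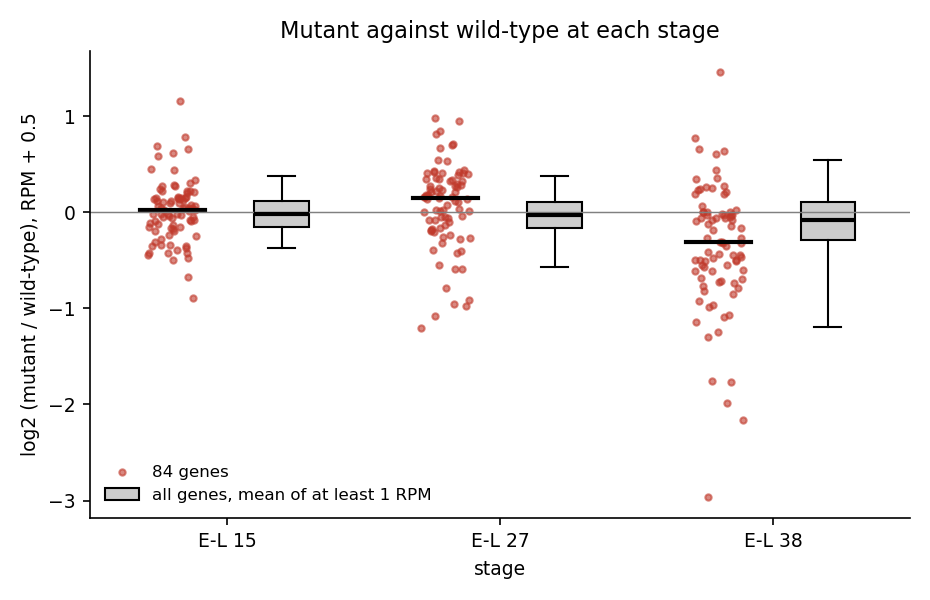
Mutant to wild-type difference (log2 of RPM plus 0.5) at each stage for the 84 genes (red points, black bar at the median) and for all genes averaging 1 RPM or more at that stage (grey box with quartiles and median, whiskers at the 5th and 95th percentiles). The medians of the 84 genes are 0.02 at E-L 15, 0.15 at E-L 27, where the rule bounded the values, and -0.31 at E-L 38.

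Whether a member differed between the clones over the 3 stages was asked with edgeR's quasi-likelihood test, in which the 3 stages stood in for replicates of a clone. None of the 84 genes was called, with a background of 0% of 23570 genes. At an unadjusted p below 0.05 there were 10 members, 6 higher and 4 lower in the mutant, which was 11.9% against a background of 5.14%. The smallest adjusted p of a member was 0.807. DESeq2, the alternative test, called 5 members, which was 5.95% of the 84 against a background of 0.275%. The young berry ratios that enter both tests were bounded by the rule, and all members had at least 10 RPM in young berries. The background genes were held to neither condition, so the shares are not a like comparison.

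Those 5 were named after their values were seen. VIT_17s0000g09770 and VIT_13s0064g00940 were higher in the mutant, by 1.18 and 1.16 on the log2 scale of DESeq2 (adjusted p = 0.0144 and 0.00386). The second of these had no read in ripe berries, and its young berry ratio of 1.999 lay near the rule's upper bound of 2. VIT_06s0004g06830 was lower, at -0.91 (adjusted p = 0.0102). VIT_10s0116g00560 was lower, at -0.59 (adjusted p = 0.000198), and VIT_00s0480g00070 at -0.58 (adjusted p = 0.000278). Their adjusted p in edgeR was 0.807 in each case.

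The last pair had nearly parallel profiles. VIT_00s0480g00070, on unplaced sequence, had 53.3 RPM in mutant and 85.3 RPM in wild-type flowers, 479 RPM in mutant and 723 RPM in wild-type young berries, and 1.61 RPM in mutant and 2.44 RPM in wild-type ripe berries. Its young berry level was 298 times that of ripe berries in the mutant and 296 times in the wild-type, and its young berry ratio between the clones was 0.662 (interval 0.653 to 0.671), against 0.663 (interval 0.657 to 0.668) for VIT_10s0116g00560. Whether the 2 are copies of one gene could not be read from the files.

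The ratio of ripe berries to flowers was the other contrast whose direction the rule left free. It set an upper limit on both stages and none on their order. With edgeR, both clones together, 52 of the 84 genes (61.9%) were lower in ripe berries than in flowers at an adjusted p below 0.05, against a background of 35.9% of 23570 genes. There were 12 genes (14.3%) higher in ripe berries, against a background of 30.9%, and 20 were not called. The median change of the members was -1.61 on edgeR's log2 scale, against -0.09 over all genes, a distance of -1.52. All 84 passed the filter on low counts through their young berry reads. The spread in this test came from the difference between the clones and had 2 residual degrees of freedom. The young berry clone ratio, which the rule bounded, enters that spread. The share of members called is therefore partly set by the rule. The upper limits at both stages and the least level of 10 RPM in young berries held for the members and not for the background genes. How far these limits alone would shift the split into lower and higher was not tested, so the shares are descriptions.

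The split of the calls depended on the scaling. With library totals in place of TMM factors the median of all genes was -0.47, a shift of -0.38, and 5 members were higher and 58 lower, while over all genes 32.8% of the calls were higher against 46.3% with TMM. The distance of the members from the median of all genes was -1.51 in that case. Leaving out the mutant flower library gave 5 members higher and 41 lower, and leaving out the wild-type flower library gave 4 higher and 41 lower. The calls over all genes also fell in number, to 4713 higher and 5986 lower without the mutant flower library, and to 4531 higher and 5868 lower without the wild-type flower library, against 7283 higher and 8465 lower with all 6. Without the mutant E-L 27 library 8 members were higher and 49 lower, and without the wild-type E-L 27 library 9 were higher and 49 lower. Without the mutant ripe berry library 12 were higher and 51 lower, and without the wild-type ripe berry library 11 were higher and 61 lower.

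The 52 genes that fell had a median of 9.27 RPM in mutant and 8.40 RPM in wild-type flowers, 65.0 RPM in mutant and 68.9 RPM in wild-type young berries, and 0.339 RPM in mutant and 0.582 RPM in wild-type ripe berries. VIT_13s0064g00940 and VIT_19s0014g04900 had the largest fitted decreases. VIT_13s0064g00940, with no read in ripe berries, was at least 181-fold lower there than in mutant flowers and at least 104-fold lower than in wild-type flowers, counted against 3 reads per library. VIT_19s0014g04900 on chromosome 19 had 14.9 RPM in mutant and 13.5 RPM in wild-type flowers, 92.1 RPM in mutant and 121 RPM in wild-type young berries, and 0 reads in mutant and 1 read in wild-type ripe berries. It was at least 351-fold lower in mutant ripe berries than in mutant flowers. Both genes were thus detected in flowers and young berries and were at the limit of detection at harvest.

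The 12 genes called higher had lower flower medians, which their choice favoured, since the call asked for less in flowers than in ripe berries. Their medians were 2.84 RPM in mutant and 2.88 RPM in wild-type flowers, 56.8 RPM in mutant and 50.2 RPM in wild-type young berries, and 5.42 RPM in mutant and 6.16 RPM in wild-type ripe berries. Not all were low in flowers, where VIT_18s0001g14790 had 15.15 RPM in the mutant and 14.93 RPM in the wild-type. Nor did all rise in plain RPM beyond counting error. VIT_14s0068g01380 had ripe berry to flower ratios of 1.04 in the mutant (interval 0.919 to 1.18) and 1.01 in the wild-type (interval 0.893 to 1.15). With library totals 5 of the 12 were still called higher. VIT_13s0074g00690 had the largest increase, 2.26 on edgeR's log2 scale (adjusted p = 0.00126). It had 1.49 RPM in mutant and 2.03 RPM in wild-type flowers, 79.2 RPM in mutant and 67.3 RPM in wild-type young berries, and 6.04 RPM in mutant and 6.93 RPM in wild-type ripe berries. The ripe berry level was 4.06 times the flower level in the mutant (interval 3.33 to 4.97) and 3.41 times in the wild-type (interval 2.90 to 4.03). VIT_15s0048g02480 followed with 2.05 (adjusted p = 0.0285). It was low in flowers, with 8 reads in the mutant and 18 reads in the wild-type, had 20.6 RPM in mutant and 11.3 RPM in wild-type young berries, and had 0.564 RPM in mutant and 0.395 RPM in wild-type ripe berries. Its young berry level was 226 times the flower level in the mutant and 57.9 times in the wild-type.

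**Figure D5:**
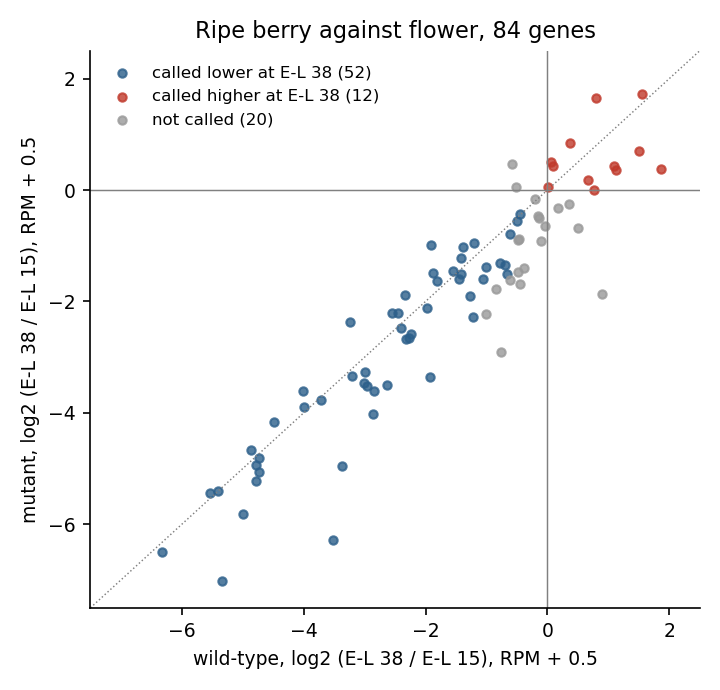
Ripe berry to flower difference (log2 of RPM plus 0.5) of the 84 genes in the mutant (vertical axis) against the wild-type (horizontal axis), coloured by edgeR's call over both clones. Most points lie in the lower left, 66 being lower in ripe berries of both clones, and 6 lie in the quadrants where the clones go opposite ways.

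Taken clone by clone, the ripe berry to flower difference had a median of -1.61 in the mutant, against -1.25 in the wild-type on the log2 scale of RPM plus 0.5, where all genes averaging 1 RPM or more had -0.45 in the mutant, against -0.35 in the wild-type. In both clones 66 members were lower and 12 higher in ripe berries, and 6 went opposite ways (8 with TMM factors or with DESeq size factors). Over the 84 genes the values of the clones correlated with Pearson's r = 0.93 and Spearman's rho = 0.92. This is a description across genes, which are not independent replicates, although the clones' values share no library.

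The members were spread over all 19 chromosomes and unplaced sequence, with 10 each on chromosomes 3 and 13, 8 on chromosome 6 and 7 on chromosome 8. Chromosome 3 held 11.9% of the members and 3.97% of the genes that had 10 RPM in both young berry libraries, and chromosome 13 held 11.9% and 5.43%. There were 19 members with another member within 10 identifiers along the same chromosome, in 9 runs. Of the neighbours within that distance that reached 10 RPM in both young berry libraries, 3.55% (22 of 620) were members. Members were 0.688% of all genes at that level. Neighbours were counted from each member in turn, so that only pairs of members were counted from both sides. Neighbouring genes may be near-identical copies. Reads that matched several places were left out by the authors, so levels of such copies are uncertain.

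The largest run held 3 members on chromosome 8, VIT_08s0058g00930, VIT_08s0058g00990 and VIT_08s0058g01010, and its genes did not share their clone ratios. In young berries they had 13.7, 21.3 and 15.7 RPM in the mutant, and 29.4, 22.0 and 10.7 RPM in the wild-type. The mutant to wild-type ratios were 0.464 (interval 0.431 to 0.4998), 0.968 (interval 0.904 to 1.04) and 1.47 (interval 1.35 to 1.60). The first of them was also higher in ripe berries than in flowers of both clones, and the other two were lower.

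The pair VIT_01s0127g00540 and VIT_01s0127g00560 on chromosome 1 was alike at 2 stages. In flowers the first had 126 RPM in the mutant and 130 RPM in the wild-type, and the second 114 RPM in the mutant and 116 RPM in the wild-type. In young berries the first had 704 RPM in the mutant and 551 RPM in the wild-type, and the second 641 RPM in the mutant and 530 RPM in the wild-type. In ripe berries the first had 36.7 RPM in the mutant and 72.2 RPM in the wild-type, and the second 61.0 RPM in the mutant and 82.7 RPM in the wild-type. The values of the second were the highest ripe berry levels of the set in both clones. The pair VIT_03s0038g03160 and VIT_03s0038g03180 on chromosome 3 differed at harvest. In ripe berries the first had 0 reads in the mutant and 1 read in the wild-type, while the second had 3.33 RPM in the mutant and 5.64 RPM in the wild-type. Their flower levels were close to each other, 1.82 and 1.85 RPM in the mutant and 2.495 and 1.67 RPM in the wild-type.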

How the data were processed

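The deposited table held, for each of 6 libraries, whole-number counts of reads per gene, and RPM, which the authors computed by scaling each count to the library total. The authors aligned paired-end reads with BWA to the 12x v1 annotation, allowed 2 mismatches in the first 32 bases, processed alignments with SAMtools and left out reads placed at several positions. Versions are not given in the sources used here. RPM was used for levels and ratios. Counts were tested with edgeR 4.0.16 in R 4.3.3 (stage and clone as additive terms, TMM factors, filterByExpr, Benjamini-Hochberg adjustment over 23570 genes, threshold 0.05). DESeq2 1.42.0, other scalings, no filter and leaving out each library were alternatives. Scripts ran in Python 3.11.15 with scipy 1.17.1. The edgeR fit was also run on simulated counts in which few genes changed between stages, unlike these data. That run does not show how many differences the fit would miss here.

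The members and lists were chosen with earlier results of these data known. One further gene that met the conditions is not reported here. The reference table, of another assembly, matched 0 of the 84 identifiers. Lists by gene product, promoter motifs and sequences could therefore not be used. Up to 2 genes in each direction of a comparison were named, by level, sharpness of the maximum, clone ratio and ripe berry to flower change, with those at the limit, in runs of neighbours, or in counts of 5 or fewer. Neighbours were genes within 10 identifiers of one another. Marker genes were those that the study annotates.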

Additional observations from a re-analysis of the deposited data

Results flagged for a closer look

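In 3 of the 6 members whose ripe berry to flower difference went opposite ways in the clones, the counting interval lay off 1 in both clones. With TMM factors or DESeq size factors 8 members went opposite ways. The share of all genes that did so is not given here, so the count is not a result about the members. The difference between the clones was not tested, since each value comes from 2 libraries. VIT_09s0054g01220 had a ripe berry to flower ratio of 0.256 in the mutant (interval 0.228 to 0.288) and 1.89 in the wild-type (interval 1.76 to 2.03). VIT_10s0071g00770 had 0.608 in the mutant (interval 0.545 to 0.678) and 1.44 in the wild-type (interval 1.33 to 1.56). It had 11.3 RPM in mutant and 10.6 RPM in wild-type flowers, 50.2 RPM in mutant and 67.6 RPM in wild-type young berries, and 6.90 RPM in mutant and 15.3 RPM in wild-type ripe berries. VIT_04s0008g05410 went the other way, with 1.49 in the mutant (interval 1.20 to 1.86) and 0.604 in the wild-type (interval 0.488 to 0.747), on 147 to 228 reads in each of the 4 libraries. The directions of all 3 genes were the same with TMM factors and with DESeq size factors.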

How the results depend on the processing

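The size of the set followed the ratio asked of the maximum. A ratio of at least 3 gave 158 genes, which held all 84, and a ratio of at least 8 gave 28 of the 84. The other settings of the rule gave 64 to 107 genes, and with TMM factors or DESeq size factors 72 of the 84 met it, beside 2 others in each case. DESeq2 called 5 members between the clones (2 higher and 3 lower in the mutant), where edgeR called 0 with each scaling, without a filter and without any 1 of the 6 libraries (range 0 to 0 members). Between ripe berries and flowers, leaving out 1 library gave 45 to 72 members called, and no call of the full fit changed sign. The median clone differences kept their sign at each stage with both scalings and with 0.05 RPM added, but in ripe berries the size depended on the RPM added, with a median of -0.31 at 0.5 RPM and -0.53 at 0.05 RPM. With 1 library per group, counting error was the only error that could be measured for a single stage, and in ripe berries the median counting interval of the clone ratio reached 0.34 on the log2 scale to either side.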
